A study of Glycine max with 6 samples.

Results

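The genes described here are 8 soybean gene models of raffinose synthesis among the 56044 gene models counted. They were taken by a list of identifiers, which was chosen with earlier results of these data known. The list comprises MIPS1 (Glyma.11G238800), the galactinol synthases Glyma.03G222000, Glyma.19G219100, Glyma.20G094500 and Glyma.10G145300, and the raffinose synthases RS2 (Glyma.06G179200), RS3 (Glyma.05G003900) and RS4 (Glyma.05G040300). All 8 were found in the count table. RNA-seq was performed on leaves of wild-type BR16, a soybean cultivar grown in pots in a greenhouse, at 20 and 80 days after germination (DAG), with 3 biological replicates at each age. The study's methods place the younger leaves at vegetative stage V3 and the older at reproductive stage R7, when pods begin to ripen, whereas the deposited design text calls both ages vegetative. Leaf disks came from the third and the seventh trifoliate leaf, without a statement of which was used at which age, so age, plant stage and leaf position cannot be told apart. The question of the comparison is which genes change as soybean leaves senesce.

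Raffinose is made in a short chain of reactions. MIPS1, an inositol-3-phosphate synthase, converts glucose 6-phosphate into the precursor of myo-inositol, the ring alcohol that also feeds phytic acid and membrane phosphoinositides. Galactinol synthase joins myo-inositol to galactose from UDP-galactose, and raffinose synthase moves that galactose from galactinol to sucrose. Raffinose and its longer relative stachyose accumulate in maturing soybean seeds and are not digested by people and pigs, and in leaves galactinol and raffinose are known as protectants formed under drought, cold and heat. In soybean seeds, mutant alleles of RS2 and of MIPS1 lower the raffinose and stachyose content.

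The 6 libraries held 10758425 to 15883253 counts each, and 1 gene model took between 18.7% and 27.4% of them. Levels are given in CPM, counts per 1000000 of the library's effective size (its total over the tested genes, multiplied by the TMM factor). Replicate 1 of 20 DAG stood apart from the other replicates of its age, with a root mean square difference of 0.93 and 0.72 in log2 CPM from replicates 2 and 3, which differed by 0.51 from each other. At 80 DAG, replicate 2 stood apart by 0.65 and 0.68, against 0.43 between replicates 1 and 3. In whole leaf tissue, fewer cells of a type and less RNA per cell cannot be told apart. The tables used here do not pair gene models with product names, so leaf, seed and nodule markers were not matched.

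Of the 8 genes, 7 had enough counts to be tested, and 6 of these were called lower at 80 DAG (edgeR quasi-likelihood F test, adjusted p under 0.05). MIPS1, all 4 galactinol synthases and RS3 made up this group, RS2 did not pass the threshold, and RS4 was nearly without reads at both ages. A large part of the transcriptome differed between the ages. Over all 30058 genes tested, 49.1% were called in either direction and 26.0% were called lower at 80 DAG. No pathway gene was called higher with edgeR, DESeq2 or limma-voom, and 0 had a higher level at an unadjusted p under 0.05 in edgeR. In 6 of the 7 genes every library of old leaves was below every library of young leaves in CPM, as in 31.2% of all genes tested. Of the 6 genes that fell, 4 (Glyma.03G222000, Glyma.19G219100, Glyma.10G145300 and RS3) passed the filter on low counts through the 20 DAG libraries alone, so that their being tested depended on a high level at that age.

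As a description, the 7 tested genes had a median log2 fold change of −5.62, or −5.22 with Glyma.03G222000, which had no reads at 80 DAG, set at its lower bound, beside −0.02 for all genes tested. A called fall of 4 or more on the log2 scale was found in 6 of the 7, and in 4.54% of all genes tested (1365 genes). By the fitted values, 5 of the 7 fell by 5 or more, as did 2.96% of all genes tested (891 genes). Among the 5 is Glyma.03G222000, whose lower bound is a log2 change of −4.81, and 213 of the 891 genes likewise had no reads at 80 DAG, so that their fitted values are no estimates of size.

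**Figure D1:**
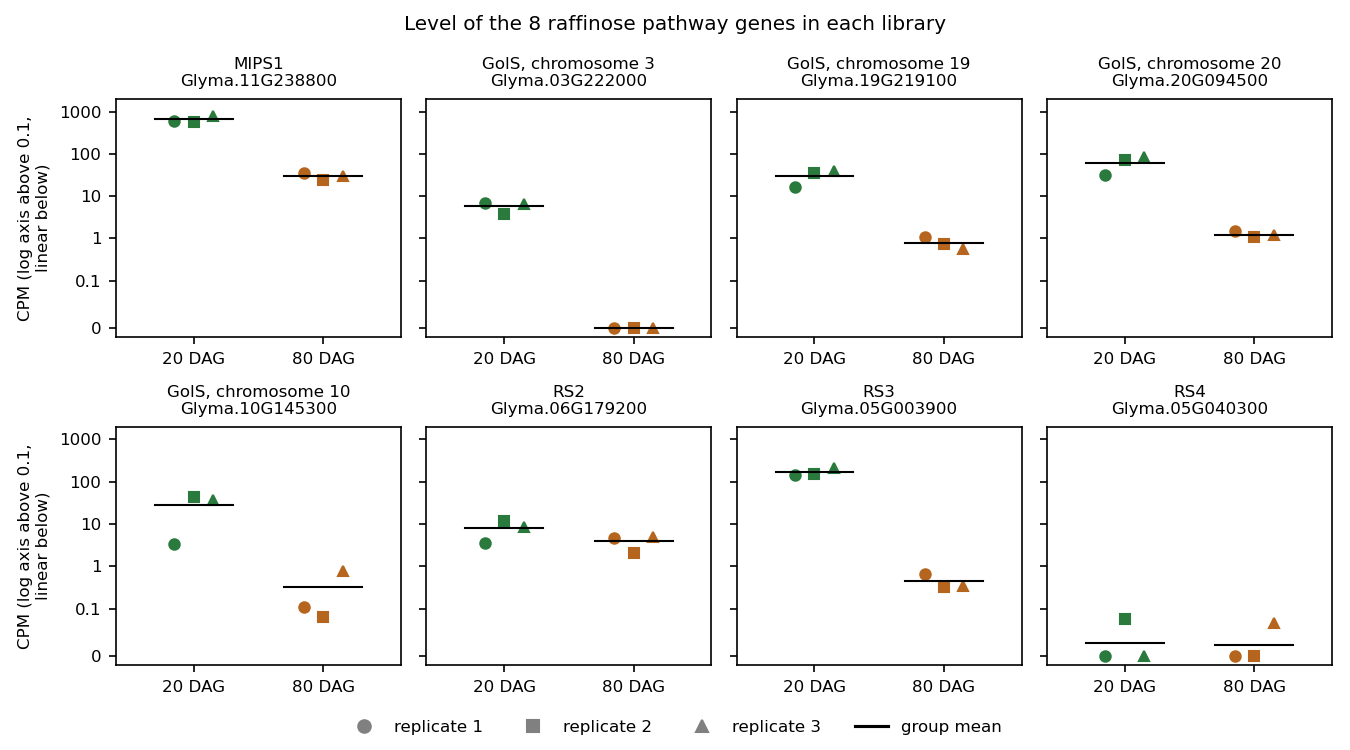
CPM of each of the 8 genes in the 3 libraries of 20 DAG (green) and the 3 of 80 DAG (brown), on a vertical axis that is logarithmic above 0.1 and linear below it. Symbols mark the replicate and black lines the group means. The ages are apart for MIPS1, the 4 galactinol synthases (GolS) and RS3, overlap for RS2, and lie at or near 0 for RS4.

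MIPS1, at the entry of the pathway, had 5758, 7118 and 8064 raw counts in the 20 DAG libraries and 637, 290 and 433 in those of 80 DAG. Its replicates were close together at both ages, with a highest to lowest CPM ratio of 1.45 at each. The lowest library of young leaves was 16.0 times above the highest library of old ones. The level fell from 657 ± 131 CPM (SD, n = 3) to 29.5 ± 5.37 (SD, n = 3), which left 4.49% of the level of young leaves. On the log2 scale MIPS1 fell by 4.48 (standard error 0.29, 95% interval of the change −5.17 to −3.78, edgeR adjusted p = 8.61e-05). This was the smallest fitted fall among the 6 called genes, although its interval overlapped those of Glyma.19G219100, Glyma.20G094500 and Glyma.10G145300. The fall of Glyma.03G222000 is known only as a lower bound, so its rank against MIPS1 is not settled. The 80 DAG level of MIPS1 was also the best measured, with at least 290 counts in each of those libraries.

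The 4 galactinol synthases lie on chromosomes 3, 19, 20 and 10, as their identifiers give. Summed over the 4 genes, galactinol synthase transcripts stood at 57.7, 154 and 167 CPM in the young leaves and at 2.66, 1.89 and 2.50 CPM in the old ones. The means were 126 ± 59.6 and 2.35 ± 0.404 CPM (SD, n = 3 each), so that 1.86% of the level at 20 DAG was left. The spread was wide among young leaves, where replicate 1 was the lowest, and narrow among old ones.

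In young leaves Glyma.20G094500 had 294, 908 and 835 counts, and in old leaves it had 27, 13 and 17. Its mean level was 61.8 ± 27.1 CPM in young leaves and 1.24 ± 0.204 CPM in old ones (SD, n = 3), and it fell by 5.62 on the log2 scale (standard error 0.44, 95% interval of the change −6.65 to −4.58, edgeR adjusted p = 0.000144). Replicate 1 of 20 DAG held the fewest reads of this gene among the young leaves. Its CPM was still 21.4 times that of the highest library of old leaves. Glyma.19G219100 followed the same course, with 151, 462 and 396 counts in young leaves and 20, 9 and 8 in old ones. From 30.5 ± 12.6 CPM (SD, n = 3) it went down to 0.793 ± 0.269 CPM (SD, n = 3), a level 38.5-fold lower in mean CPM and a fitted log2 change of −5.22 (95% interval −6.28 to −4.17, edgeR adjusted p = 0.000197). The intervals of these 2 genes overlapped for the most part, and a difference between them in the size of the fall was not tested.

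Glyma.10G145300 was the least even of the galactinol synthases. Its counts were 32, 565 and 372 at 20 DAG and 2, 1 and 11 at 80 DAG, so that replicates of the young leaves differed 12.9-fold in CPM and those of the old leaves 9.27-fold. Even so, the lowest library of young leaves, at 3.41 CPM, was 4.47 times above the highest library of old leaves, at 0.763 CPM. The mean was 28.2 ± 21.7 CPM at the younger age and 0.318 ± 0.385 CPM at the older (SD, n = 3). The fitted log2 change of −6.45 therefore had a standard error of 1.16 and a wide 95% interval, from −9.18 to −3.72 (edgeR adjusted p = 0.00364). With limma-voom, the fall of Glyma.10G145300 did not pass the threshold (adjusted p = 0.0608). Without replicate 3 of 80 DAG, the library with 11 counts, its fitted fall went from 87.4-fold to 259-fold, a value that then rests on 2 and 1 counts at that age. Without replicate 1 of 20 DAG its log2 fold change was −6.98 (adjusted p = 0.000191).

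Glyma.03G222000 had few reads in young leaves and none in old ones, with 65, 50 and 65 counts against 0, 0 and 0. Unlike the other 3 galactinol synthases, it was not lowest in replicate 1 of 20 DAG, where it had 6.92 CPM against 3.89 and 6.49 in replicates 2 and 3. Because a count of 0 allows up to 3 counts in a library, the gene was at least 28.0-fold lower at 80 DAG than its mean of 5.77 ± 1.64 CPM (SD, n = 3) at 20 DAG (edgeR adjusted p = 0.000474). This bound leaves out the spread between young leaves. From the lowest library of young leaves and the highest 3-count limit of old ones, the bound was 15.8-fold. The fitted log2 fold change, −9.21, depends on how the 0 counts are treated and is no estimate of size.

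Among the raffinose synthases, RS3 fell furthest. It had 1332, 1918 and 2056 counts in the young leaves, as even as MIPS1, and 12, 4 and 5 in the old ones. The lowest library of young leaves stood 218 times above the highest library of old leaves. Young leaves held 165 ± 34.7 CPM of RS3 and old leaves 0.442 ± 0.181 CPM (SD, n = 3). The fitted fall was 354-fold, a log2 change of −8.47 (standard error 0.37, 95% interval −9.33 to −7.61, edgeR adjusted p = 3.99e-05), and this interval overlapped that of Glyma.10G145300 but not those of MIPS1, Glyma.19G219100 or Glyma.20G094500. Of all genes, 152 of the 30058 tested (0.506%) had a fitted log2 fold change as low or lower, and 105 of these had no reads at 80 DAG, for which the fitted value is no estimate of size. At 80 DAG the transcript was thus close to the limit of these libraries, in which 3 counts amount to 0.163 to 0.247 CPM.

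RS2 took another course. Its counts were 33, 149 and 86 in young leaves and 84, 25 and 72 in old ones. The ages overlapped, because replicate 1 of 20 DAG, at 3.51 CPM, was below 2 of the 3 libraries of old leaves. The mean of RS2 was 7.90 ± 4.08 CPM in young and 3.87 ± 1.58 CPM in old leaves (SD, n = 3). Its fitted log2 change of −1.03 (standard error 0.48) had an edgeR adjusted p of 0.115 and a 95% interval from −2.15 to 0.10, which did not overlap the interval of any of the 6 called genes. RS2 passed the threshold when replicate 1 of 20 DAG was left out (log2 fold change −1.37, adjusted p = 0.0194), and then 7 of 7 tested genes were lower. It did so under 1 of 13 alternatives, which gave adjusted p from 0.0194 to 0.325.

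RS4 had 2 counts in all, 1 in replicate 2 of 20 DAG and 1 in replicate 3 of 80 DAG, among 76091712 counts. Its level was at or under 3 counts in every library, and no change was detectable at this depth.

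**Figure D2:**
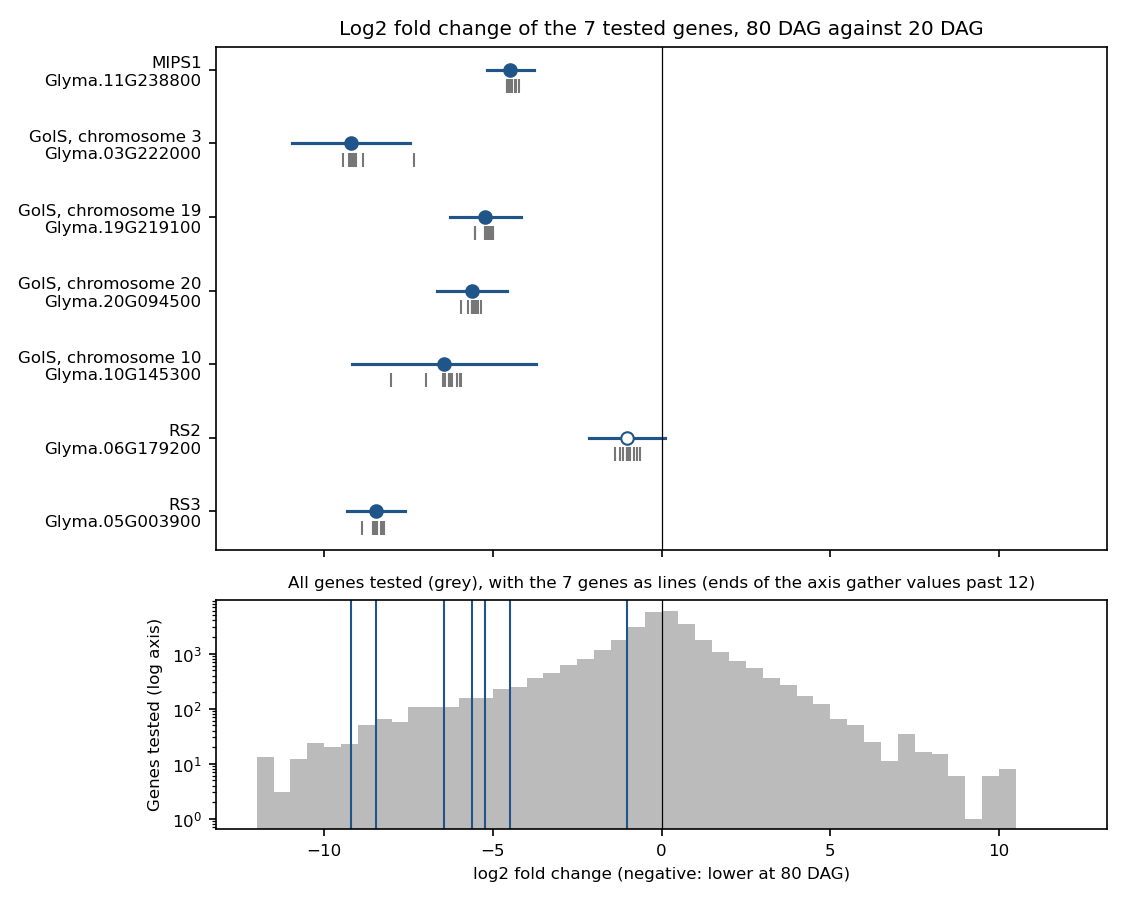
Top, log2 fold change of the 7 tested genes between 80 and 20 DAG, with circles for edgeR's estimate (filled where the adjusted p was under 0.05), lines for the 95% interval and grey ticks for the alternative settings. Bottom, number of all 30058 genes tested by log2 fold change on a logarithmic axis, with the 7 genes as blue lines. RS2 lies at −1.03 with an interval that includes 0, and the other 6 lie between −9.21 (Glyma.03G222000, no reads at 80 DAG) and −4.48 (MIPS1).

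Ratios between genes within one library do not depend on how libraries are scaled. Of the 8 ratios taken, 4 were compared with a two-sided exact permutation test, which cannot give a p below 0.1 with 3 libraries against 3. The 4 galactinol synthases, relative to the 3 raffinose synthases, had a log2 ratio of −0.58 ± 0.67 in young and −0.81 ± 0.42 in old leaves (SD, n = 3). The difference of −0.22 was smaller than the spread between libraries, which overlapped (exact permutation p = 0.8). In mean CPM, the summed galactinol synthases were 53.7-fold lower and the summed raffinose synthases 40.0-fold lower at 80 DAG. Different genes supplied the reads of the latter sum at the 2 ages, RS3 with 165 of 173 CPM in young leaves and RS2 with 3.87 of 4.33 CPM in old ones, so neither this fold nor the ratio to the sum describes RS3 or RS2 alone.

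Within the galactinol synthases, the pair on chromosomes 3 and 19 and the pair on chromosomes 20 and 10 changed in their ratio by 0.18 on the log2 scale, less than the spread of the libraries (exact permutation p = 0.9). Glyma.20G094500 relative to Glyma.10G145300 differed by 1.01 on the log2 scale (exact permutation p = 0.5), in libraries that ranged from 0.68 to 3.20 at 20 DAG and from 0.63 to 3.75 at 80 DAG. For Glyma.03G222000 relative to Glyma.19G219100, the 80 DAG ratios had no reads in the numerator. With 0.5 added to each count, the log2 ratio went from −2.33 ± 1.02 to −4.56 ± 0.69 (SD, n = 3 each; exact permutation p = 0.1, the smallest possible), but 3 counts of Glyma.03G222000 would place the old leaves at −2.74, −1.58 and −1.42, inside the range of the young leaves. A difference between these 2 genes in the size of the fall was therefore not detectable at this depth. Adjusted over the 4 ratios, the exact permutation p was 0.4 for this pair and 0.9 for the other 3.

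The other 4 ratios were chosen after the values were seen and are given without a test. RS3 relative to RS2 was 5.33, 3.69 and 4.58 on the log2 scale in young leaves and −2.81, −2.64 and −3.85 in old leaves. The ages were far apart, and the mean difference of −7.63 made the balance of the 2 raffinose synthases the most changed of the 8 ratios. The 4 galactinol synthases relative to RS3 alone went from −1.30, 0.05 and −0.30 in young leaves to 2.03, 2.52 and 2.85 in old leaves. This mean difference of 2.98 is far from that against the raffinose synthase sum, and its 80 DAG values rest on 12, 4 and 5 counts of RS3. RS3 relative to MIPS1 was tight at 20 DAG, with −2.11, −1.89 and −1.97, and dropped to −5.73, −6.18 and −6.44 at 80 DAG, which means that RS3 fell by a factor 17.4 times that of MIPS1. The 4 galactinol synthases relative to MIPS1 went the other way in spread, from −3.41, −1.84 and −2.27 in young leaves to −3.70, −3.66 and −3.59 in old ones. Replicate 1 of 20 DAG lay nearest to the old leaves in this last ratio, and the mean difference of −1.14 ran from −1.59 without this library to −0.81 without replicate 2 of 20 DAG.

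**Figure D3:**
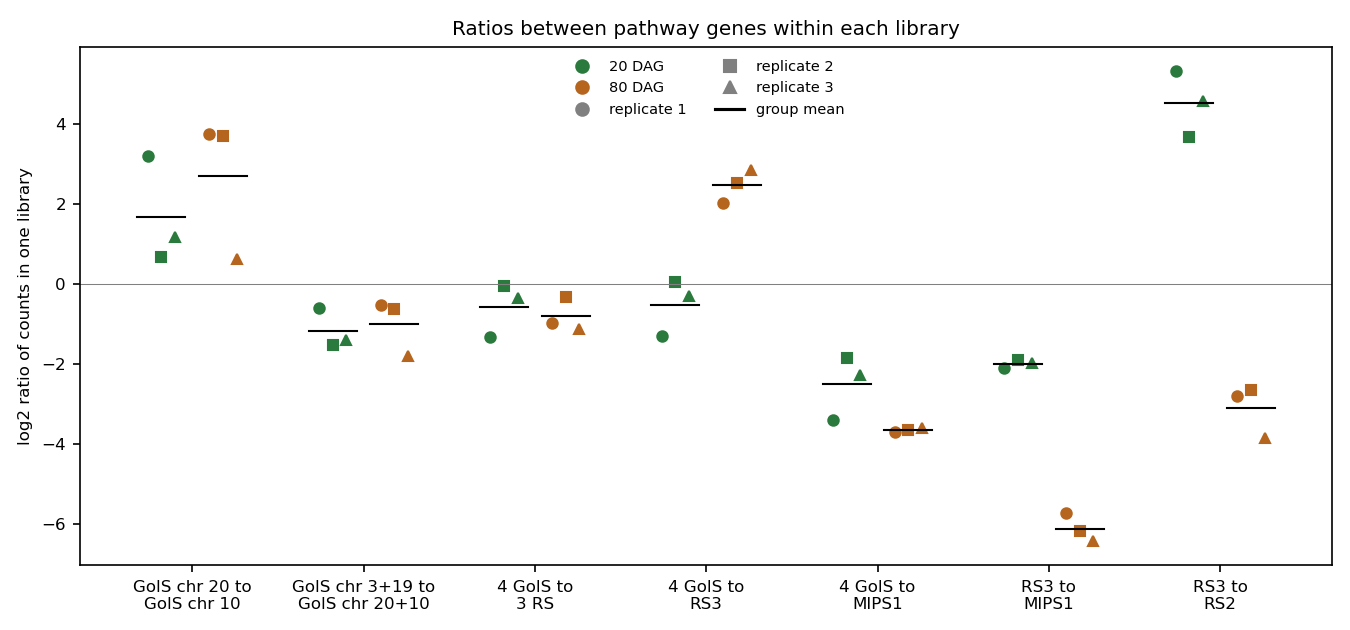
Log2 ratio of the raw counts of 2 genes or gene sums within one library, for 7 of the 8 ratios, in young (green) and old (brown) leaves. Symbols mark the replicate and black lines the group means. The ages separate for RS3 to RS2, RS3 to MIPS1, the 4 galactinol synthases to RS3 and the 4 galactinol synthases (GolS) to MIPS1, and overlap for the other 3; the ratio of the chromosome 3 to the chromosome 19 gene is left out because its 80 DAG counts include 0.

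The course over the 6 libraries was compared as the root mean square difference of log2 CPM (with a prior count of 2), after each gene was centred on its own mean. The 2 most alike members were Glyma.19G219100 and Glyma.20G094500, at 0.27 over 6 libraries, and only 7 other genes were nearer to Glyma.19G219100 than this family member was. The measure includes the difference between ages, so any pair of genes that fell by a like factor comes out near. No likeness is given for Glyma.03G222000, whose 80 DAG values in this measure are set by the prior count. RS2 had no member close to it: its nearest was MIPS1, at 1.86, and 27682 genes were nearer. Among all genes tested, the nearest to Glyma.20G094500 was Glyma.15G242200, at 0.18, and the nearest to MIPS1 was Glyma.14G083500, at 0.12. These 2 neighbours averaged 0.105 and 0.059 CPM at 80 DAG, where 3 counts amount to at least 0.163 CPM. Their 80 DAG values in this measure are thus largely set by the prior count, which limits what the likeness means. Their fitted log2 changes were −6.32 and −5.95, against −5.62 for Glyma.20G094500 and −4.48 for MIPS1. Neither neighbour has a name in the tables used here.

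**Figure D4:**
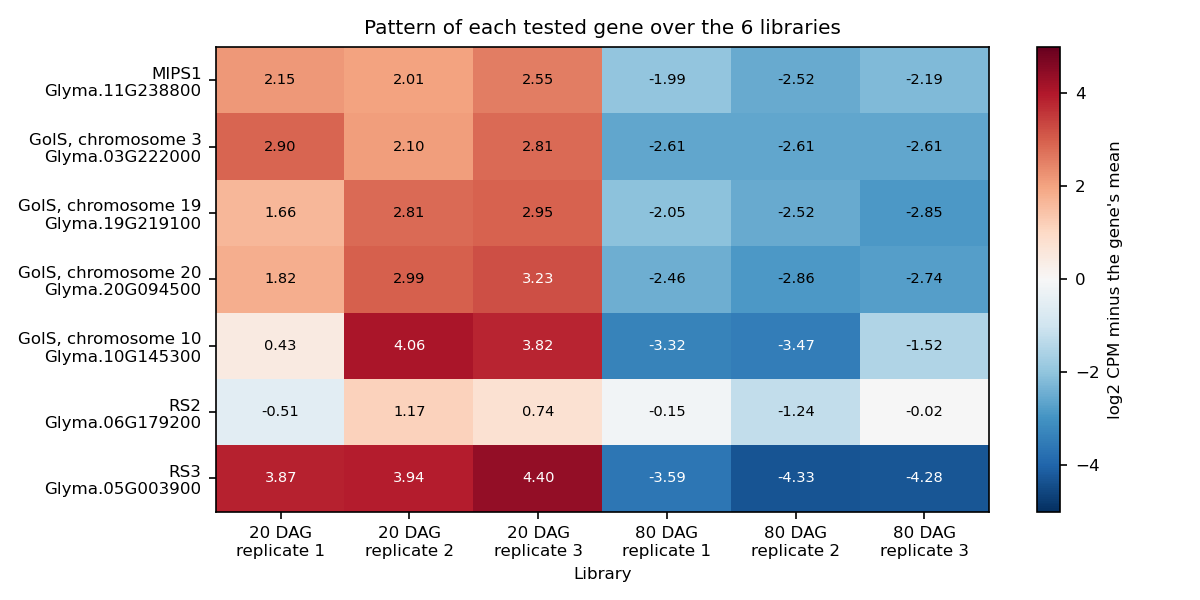
Log2 CPM of the 7 tested genes in each of the 6 libraries, minus the gene's mean over the libraries, with the value printed in each cell (red above the mean, blue below). The 80 DAG values of Glyma.03G222000, which had no reads there, are set by the prior count. Glyma.19G219100, Glyma.20G094500, Glyma.10G145300 and RS2 are clearly lowest among young leaves in replicate 1 (RS3 only slightly), and RS2 is the gene with the smallest range, from −1.24 to 1.17.

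Replicate 1 of 20 DAG was thus low in 3 of the 4 galactinol synthases and in RS2, but not in MIPS1 or Glyma.03G222000. RS3 was within 1.45-fold over the 3 libraries of young leaves. What set replicate 1 of 20 DAG apart was not tested. Without it, the fitted folds of the 6 called genes moved by less than 1.5 times and the 6 calls held. The 6 calls also held without replicate 2 of 80 DAG.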

How the data were processed

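Leaf RNA of BR16 was extracted with Trizol, depleted of ribosomal RNA and prepared as stranded, paired-end libraries. The authors deposited raw counts per gene model of Wm82.a2.v1, with no normalization. The processing notes name CASAVA 1.7, Bowtie2 and DESeq2; the counting program and its use of strand are not given in the sources used here, so reads of similar paralogs, such as the galactinol synthases, may be split uncertainly. All 6 columns matched a sample.

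Counts were tested with edgeR 4.0.16 (R 4.3.3) as quasi-likelihood F tests, with TMM normalization, the default expression filter and Benjamini-Hochberg adjustment over 30058 genes, at an adjusted p under 0.05 and no fold minimum. The study itself used DESeq2 with independent hypothesis weighting. Standard errors were derived as the size of the log2 change over the square root of F, and 95% intervals from them with the t distribution. DESeq2 1.42.0, limma-voom (limma 3.58.1), other scalings and filters, a replicate block, a threshold of 0.01 and each library left out were the alternatives. The study describes its replicates as biological triplicates, without saying whether plants were pooled. The 95% intervals carry the spread between replicates as well as counting error. Limits for a count of 0 (3 counts) cover counting error only.

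The members and lists were chosen with earlier results of these data known. Named were all 8 genes and, by rule, the genes nearest in pattern, of which 2 are given because they lack names. Other pathway genes, gene lengths, sequences and tissue markers were not analysed here, since the tables used pair no products with these gene models. Sums and ratios of genes are therefore of reads not corrected for gene length. A higher CPM in one gene than in another does not by itself mean more transcript.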

Additional observations from a re-analysis of the deposited data

How the results depend on the processing

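The 6 called falls and the absence of a rise were the same with DESeq2's size factors, library size alone, DESeq2, no filter, an adjusted p under 0.01 and each library left out, except that 7 genes were lower without replicate 1 of 20 DAG (range 6 to 7 when 1 library was left out). With limma-voom 5 genes were lower, Glyma.10G145300 being lost (log2 fold change −6.27, adjusted p = 0.0608). With at least 10 counts in every library 2 genes were lower, because 3 of the 8 could then be tested. With library size alone, the median of all genes went from −0.02 to 0.21 on the log2 scale, and MIPS1 and RS3 stood at −4.22 and −8.24. Libraries with one replicate number did not deviate together (correlations of −0.24, −0.33 and 0.08; 0 of 6 libraries correlated best with their own number). With the replicate block 6 genes were lower, and 11702 genes in all were called in place of 14758. The log2 difference of the galactinol synthase to raffinose synthase ratio ran from −0.60 to 0.04 when 1 library was left out, that of the chromosome 3 and 19 to the chromosome 20 and 10 pair from −0.05 to 0.58, and neither had a clear direction. The list of other pathway genes was not run. The 80 DAG levels of RS3 and of 3 galactinol synthases rest on at most 20 counts in a library.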
